A study of Rattus norvegicus with 9 samples.

Results

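The genes examined here were 4 that serve the copying, repair and packaging of DNA (Mcm4, Rfc1, Ung and Chaf1b) and the 2 atypical E2F repressors E2f7 and E2f8. They were chosen by name, with earlier results of these data known, and they are 6 of the 26249 gene units in the deposited files. E2f7 and E2f8 came from the study's own account of transcription factors that differed between NPCs and MSCs, so their direction in that comparison is described here and is not independent evidence. mRNA was sequenced in 3 groups of 3 libraries of rat cells, for MSCs and NPCs from Sprague-Dawley rats aged 4 weeks. No source used here gives the age for the IGF-1 group. MSCs were bone marrow mesenchymal stem cells grown to passage 3 and given no inducing factor. NPCs were neural progenitor-like cells made from such MSCs over 3 days, as floating spheres on low-attachment plates in NeuroCult NS-A medium with EGF and bFGF at 20 ng/ml each. The third group had IGF-1 added to EGF and bFGF for the same 3 days, at a dose that no source used here gives. Since no library came from floating cells without the factors, the factors and the change of medium and plates cannot be told apart. The libraries held cell populations, so fewer cycling cells and less RNA per cell cannot be told apart either.

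Cells copy their DNA once per cycle, in S phase. Mcm4 is a subunit of the ring-shaped MCM helicase that opens the double helix, and Rfc1 is the large subunit of the clamp loader that places the sliding clamp PCNA on DNA. Ung removes uracil from DNA as the first step of base excision repair. Chaf1b is a subunit of chromatin assembly factor 1, which lays histones on newly copied DNA. The promoters of many such genes hold a motif bound by E2F factors. E2f7 and E2f8 bind that motif without a dimerisation partner and repress transcription, and they are themselves made late in G1 and in S phase.

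The E2F motif is shown first, since it is the sequence through which the repressors and the replication genes are linked in general. RefSeq promoter windows of the rat build GRCr8, from 250 bases before to 50 bases after the start of a gene, were used for the 3 genes Ung, Chaf1b and E2f7, and Mcm4 and E2f8 had no entry. The E2F motif was searched on both strands as TTNNCGC with C or G at both positions N. This form of 7 letters was in each of these 3 windows, and in 9.52% of all 33469 windows of the same 300 bases. A longer form of 8 letters was also searched. It was found 1 time in the Ung window and 0 times in those of Chaf1b and E2f7, and it stood in 2.14% of all windows. Below, 30 bases of each gene are given 5′ to 3′ on the strand of the gene, with each motif or its reverse complement in capitals.

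Ung, chr12:48154058-48154087, minus strand: aagcgaaggggGCGGGAAcagttTTGCCGC
Chaf1b, chr11:46670642-46670671, plus strand: gcctgcggcgcGCGGGAAgctgcgggcagt
E2f7, chr7:48036773-48036802, plus strand: cgcggcgccgaGCGCCAAgacagcgagggg

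Of the form of 7 letters, Ung held 2 matches, 31 and 19 bases before the start. E2f7 held 3, at 250, 225 and 119 bases before it, and Chaf1b held 1, from base 4 of the transcript. The CCAAT letters, a motif of other factors, were found 3 times in the Ung window and 2 times in that of E2f7. CCAAT stood in 37.5% of all windows. These are matches of letters and not binding sites.

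**Figure D1:**
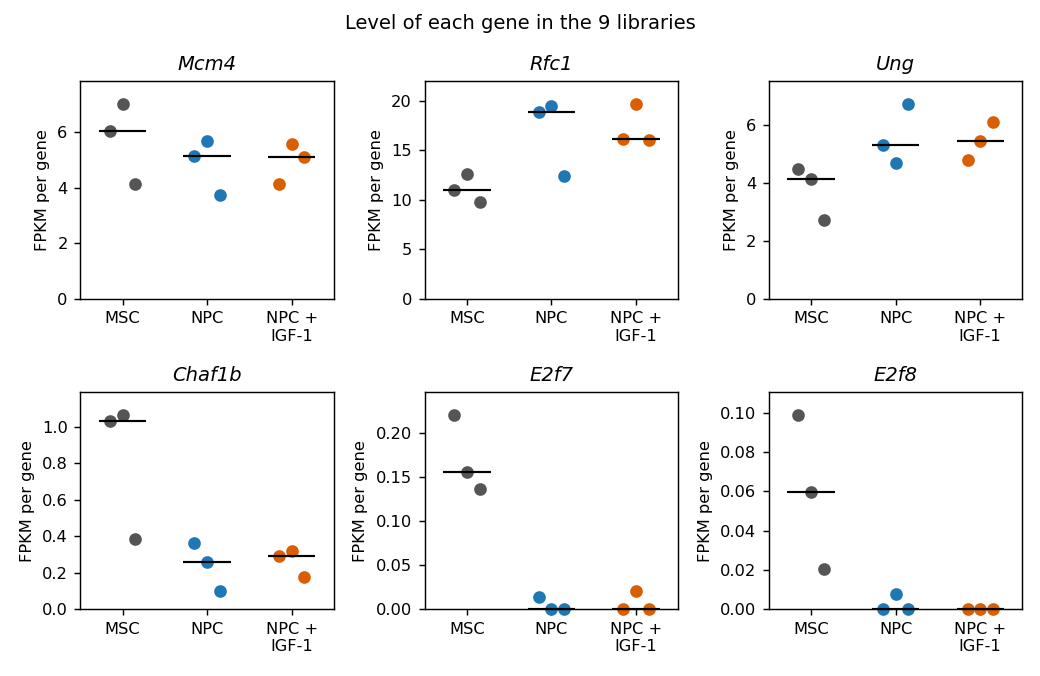
FPKM per gene (linear axes, each from 0) of the 6 genes in the 3 MSC, 3 NPC and 3 IGF-1 libraries, with 1 point a library and the median as a line. E2f7 and E2f8 are at 0.0205 FPKM or less in the 6 induced libraries, Chaf1b is highest in 2 MSC libraries, and the groups of Mcm4 overlap.

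Levels are given as FPKM, read counts scaled by transcript length and by the reads of the library, which corrects for length and so allows genes to be set side by side. Rfc1 had the highest level of the 6 genes in 9 of 9 libraries. Mcm4 and Ung followed, with Mcm4 above Ung in 5 of the 9. Chaf1b was below both and above E2f7 in all 9. E2f7 was above E2f8 in 5 of 9, the 3 MSC libraries among them. The depth behind these values, implied by the width of the deposited confidence intervals, was 39.9 to 52.4 M reads a library. This estimate was loosest in the third MSC library, with quartiles of 40.5 and 55.8 M over transcripts. A call needed a difference of at least 1 in log2(FPKM + 0.1), up or down, and a limma p of at most 0.05 after Benjamini-Hochberg adjustment over all genes tested. The NPC and IGF-1 groups were each compared with the same 3 MSC libraries, so the 2 comparisons are not independent.

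Of the 6 genes, 5 could be tested between NPCs and MSCs, and 2 of them (Chaf1b and E2f7) were called lower, beside 10.1% of the 13696 genes tested. E2f7 adds nothing to that count, since it passed the minimum level only through MSCs and had been picked from factors the study called. Of the 5, 0 were called higher by limma, beside 11.4% of all genes, and 3 of the 5 had an unadjusted p under 0.05, beside 46% of all genes. Between the IGF-1 cells and MSCs the same 2 of 5 were called lower, beside 9.83% of 14228 genes, and 0 were called higher, beside 11.6%, with 3 again at an unadjusted p under 0.05, beside 47.8%. Here too E2f7 adds nothing to the count, since it passed the minimum only through the same MSC libraries. Between the IGF-1 cells and NPCs 0 of 5 were called by limma and 0 had an unadjusted p under 0.05, where 0.0211% of the 14228 genes were called and 4.62% had such a p. E2f7 could not have been called there, since its levels in both groups lay far under the 0.1 FPKM added. The FPKM of NPCs and MSCs did not overlap for 4 of the 6 genes and this held for 49.8% of all genes tested. Ung was higher in all NPC libraries, as were 27.5% of genes, and Chaf1b, E2f7 and E2f8 were lower in all of them, as were 22.3%. Those of the IGF-1 cells and MSCs did not overlap for 5 of the 6, all but Mcm4, where the share over all genes was 54.4%. There Rfc1 and Ung were higher, as were 31.1% of genes, and Chaf1b, E2f7 and E2f8 lower, as were 23.3%. E2f7 and E2f8 add nothing to either overlap count. Both were picked from factors the study called, E2f7 was tested only through its MSC level, and E2f8 was not among the genes tested.

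**Figure D2:**
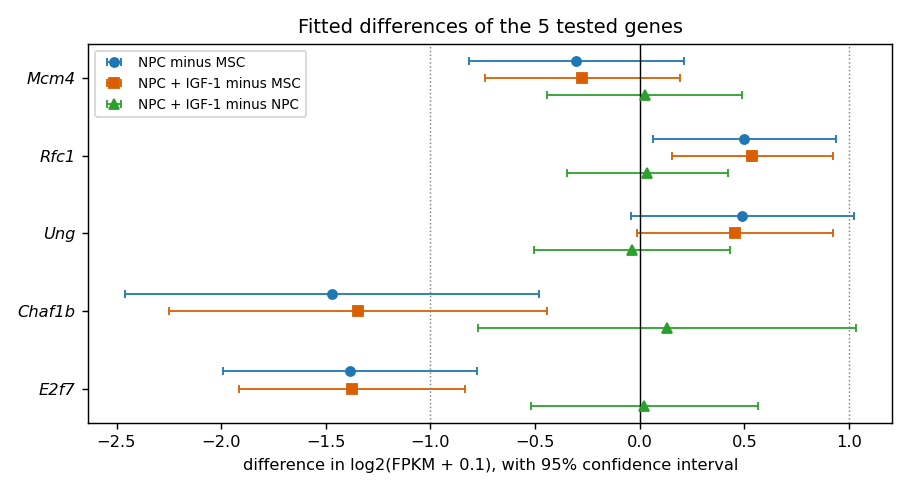
Fitted differences in log2(FPKM + 0.1) of the 5 tested genes with their 95% confidence intervals, for NPCs minus MSCs, IGF-1 cells minus MSCs and IGF-1 cells minus NPCs, with dotted lines at a difference of 1. Chaf1b and E2f7 lie below −1 in both comparisons with MSCs, and all 5 intervals of IGF-1 cells minus NPCs span 0. For E2f7 the added 0.1 FPKM leaves little room for a difference between those groups.

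The helicase subunit Mcm4 (ENSRNOG00000001833) lies on the plus strand of chromosome 11, from 92565514 to 92579215 in the coordinates of the files, for which no source used here names a build. It has 1 annotated transcript of 3339 bases in 16 exons. Its FPKM was 6.05, 6.99 and 4.11 in the MSC libraries. It was 5.12, 5.67 and 3.71 in NPCs, and 4.14, 5.55 and 5.10 with IGF-1. The groups overlapped, and replicate 3 was the lowest library in both of these groups (MSCs and NPCs). The log2 difference was −0.30 (95% interval −0.82 to 0.21, adjusted p = 0.318) for NPCs and −0.28 (−0.74 to 0.19, adjusted p = 0.322) for IGF-1 cells, each against MSCs. A fall to below 0.568 times the MSC level lies outside the first interval.

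Rfc1 (ENSRNOG00000002855, the clamp loader subunit) lies on the plus strand of chromosome 14, from 44397927 to 44516383, with 1 annotated transcript of 4723 bases in 25 exons. MSCs had 11.0, 12.6 and 9.77 FPKM. NPCs had 18.9, 19.4 and 12.4, of which the third lay below the highest MSC library. IGF-1 cells had 16.1, 19.6 and 16.0, all above the MSC libraries. The log2 difference was 0.50 (SE 0.19, adjusted p = 0.0742) in NPCs. In IGF-1 cells it was 0.54 (SE 0.17, adjusted p = 0.0329), which passed the p threshold and missed the size threshold. Both intervals ended below 1, at 0.94 and 0.92. Rfc1 was called under no alternative, and its adjusted p ran from 0.0169 to 0.972 for NPCs and from 0.00855 to 0.357 for IGF-1 cells. An annotated gene in an intron of Rfc1 and others on the opposite strand overlap this span. The kit was stranded, but no source used here says whether strand was used in the counting.

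Ung (ENSRNOG00000000692, the uracil glycosylase) lies on the minus strand of chromosome 12, from 50028792 to 50037073, with 1 annotated transcript of 1774 bases in 8 exons. Its FPKM was 4.48, 4.14 and 2.71 in MSCs. It was 5.31, 4.70 and 6.73 in NPCs and 4.79, 5.45 and 6.12 with IGF-1. Each induced library was above each MSC library, but neither comparison passed the test, with log2 differences of 0.49 (SE 0.23, adjusted p = 0.135) and 0.45 (SE 0.21, adjusted p = 0.114).

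**Figure D3:**
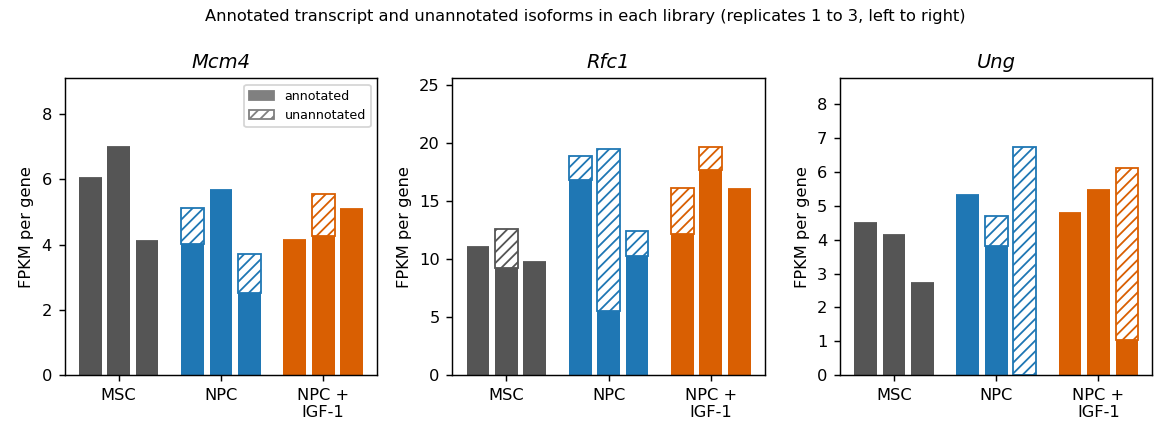
FPKM (linear axes from 0) of Mcm4, Rfc1 and Ung in each library, split into the annotated transcript (filled) and unannotated isoforms assembled for that library (hatched). The hatched part is the whole of Ung in the third NPC library and most of Rfc1 in the second NPC library.

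The sum of isoforms mattered for these 3 genes. In the third NPC library the annotated Ung transcript was listed at 0, and all of the 6.73 FPKM came from 2 partial isoforms, one of 3 exons and 1209 bases and one of 7 exons and 813 bases. In the third IGF-1 library 82.9% of the Ung value was in 3 such isoforms. Shorter isoforms gain FPKM for the same reads. With each isoform weighted by its length Ung had 4.57 ± 0.65 FPKM in NPCs, 5.04 ± 0.36 with IGF-1 and 3.78 ± 0.94 in MSCs (SD, n = 3), and the third NPC library was at 4.10, below the highest MSC library. The annotated transcript alone gave a log2 difference of −1.52 (adjusted p = 0.584) between NPCs and MSCs, so the direction for Ung turned with the treatment of isoforms. For Rfc1, 71.4% of the value in the second NPC library was in an unannotated isoform of 25 exons and 4722 bases, close to the annotated length. Its difference between NPCs and MSCs was 0.03 (adjusted p = 0.972) on the annotated transcript alone. For Mcm4, 3 libraries had an unannotated isoform, at 21.6 to 32.3% of the value, and none of them was an MSC library.

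Chaf1b (ENSRNOG00000001692, the histone chaperone subunit) was the replication gene with a called fall. It lies on the plus strand of chromosome 11, from 37690511 to 37710590, with 1 annotated transcript of 1932 bases in 14 exons and no unannotated isoform in any library. MSCs had 1.04, 1.07 and 0.384 FPKM. NPCs had 0.362, 0.262 and 0.103, and IGF-1 cells had 0.291, 0.319 and 0.177. The third MSC library stood apart from the other MSC libraries and was only slightly above the highest NPC library. It also had the lowest FPKM among MSC libraries for each other member. Its size factor in the fit of NPCs and MSCs was 0.884, beside 0.998 to 1.06 for the other libraries. The log2 difference was −1.47 (SE 0.43, adjusted p = 0.0311) for NPCs and −1.34 (SE 0.40, adjusted p = 0.0256) for IGF-1 cells.

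The Chaf1b values rested on few reads, about 79, 94 and 41 in the MSC libraries and 27, 19 and 9 in NPCs as implied by the deposited intervals. The call against NPCs was lost when replicate 1 or 2 of MSCs or replicate 2 or 3 of NPCs was left out, with adjusted p of 0.0989, 0.0905, 0.0665 and 0.0792. The call against IGF-1 cells was lost without replicate 1 or 2 of MSCs or replicate 3 of the IGF-1 cells, with adjusted p of 0.0865, 0.0848 and 0.0837. The difference stayed below −1 in each of these fits. On annotated transcripts alone it was −1.37 (adjusted p = 0.160) and −1.26 (adjusted p = 0.124), and with 1 FPKM added in place of 0.1 it was −0.55 and −0.54, each without a call. On annotated transcripts alone the FPKM of Chaf1b itself were the same, so that loss came through the other genes in the fit.

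E2f7 (ENSRNOG00000026252) lies on the plus strand of chromosome 7, from 53286862 to 53326929, with 1 annotated transcript of 3369 bases in 13 exons. Its FPKM was 0.221, 0.156 and 0.136 in the MSC libraries. Among NPCs it was 0.0145 in the first library and listed at 0 in the others. With IGF-1 it was 0.0205 in the second library and listed at 0 in the others. Every MSC library was thus above every induced library, on about 36, 27 and 19 implied reads against 2 over all NPC libraries and 3 over all IGF-1 libraries. Per read of depth, MSCs had 37.2 times the E2f7 reads of NPCs (exact 95% interval 9.99 to 313) and 26.1 times those of IGF-1 cells (8.63 to 129), with intervals for counting error only.

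The fitted log2 differences of E2f7 were −1.38 (SE 0.26, adjusted p = 0.00605) for NPCs and −1.37 (SE 0.24, adjusted p = 0.00202) for IGF-1 cells. They are smaller than the ratio of reads because 0.1 FPKM was added to values that lie near it. With 0.01 added they were −3.76 and −3.68, and with 1 added −0.22 and −0.23, where the call was lost. E2f7 reached the minimum of 0.1 FPKM in exactly the 3 MSC libraries, so that it could be tested only by differing, and it could not be tested when any 1 MSC library was left out. In the first MSC library its whole value was in an unannotated isoform of 13 exons and 3960 bases that shared the annotated start and ran past the annotated end, while the annotated transcript was listed at 0.

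E2f8 (ENSRNOG00000022537) lies on the minus strand of chromosome 1, from 105245744 to 105259620, with 1 annotated transcript of 3190 bases in 15 exons. MSCs had 0.0987, 0.0597 and 0.0204 FPKM, on about 14, 10 and 3 implied reads. The second NPC library had 0.00782 FPKM, which is 1 read, and the other NPC libraries and all 3 IGF-1 libraries were listed at 0. No library reached 0.1 FPKM, so E2f8 was not tested in the fits above. Per read of depth MSCs had 24.5 times the reads of NPCs (exact 95% interval 4.04 to 1004). IGF-1 cells had 0 reads, and the exact 95% interval for the ratio of MSCs to them began at 6.53. Both intervals cover counting error only. In a fit without the minimum the log2 difference was −0.61 (adjusted p = 0.0571) in NPCs and −0.65 (adjusted p = 0.0156) in IGF-1 cells, neither past the size threshold. With no minimum and 0.01 FPKM added, a setting chosen after the values were seen, it was −2.37 (adjusted p = 0.0313) and −2.66 (adjusted p = 0.00526). A value of 0 in these files can also be a failed estimate, since 177 of the 7894 genes with a median of at least 5 FPKM (2.24%) were listed at 0 in some library.

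IGF-1 cells and NPCs did not differ beyond their spread for the 5 tested genes, though for E2f7 the fit left no room for a call. The log2 differences were 0.02 for Mcm4 (95% interval −0.44 to 0.49), 0.04 for Rfc1 (−0.35 to 0.42) and −0.04 for Ung (−0.51 to 0.43). For Chaf1b the difference was 0.13, and its interval of −0.77 to 1.03 was the widest, so a change of up to 2.05 times lies inside it. E2f7 had 0.02 (−0.52 to 0.56), on the few reads given above. Every induced library was at 0.0205 FPKM or less for E2f7, so with 0.1 added a difference near 1 could not arise. This fit therefore cannot say whether E2f7 differed, and with 0.01 added the difference was 0.10 (SE 0.82). For Mcm4, Rfc1 and Ung the intervals of this fit leave out any change of 1.5 times. On annotated transcripts alone they were wider, and the difference was 0.56 (SE 0.39) for Rfc1 and 1.25 (SE 1.47) for Ung, where such a change is not left out.

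The other genes of these pathways were taken from 8 lists of 155 genes in all. Gene names were paired with IDs for only 27 of them, the 6 genes above and 21 others, of which 12 were named through an unselected part of the study's expression table and 9 through its table of called genes. Between NPCs and MSCs 6 of these 21 were called lower and 0 higher, beside 10.1% and 11.4% of all genes tested. Their median log2 difference was −0.31, beside 0.02 over all genes tested. All 6 were among the 9 named because the study had called them, which is not independent evidence of their direction. Of the 12 named without selection 0 were called in limma, and their median was 0.01. Against MSCs the IGF-1 cells had 4 of the 21 called lower and 0 higher, beside 9.83% and 11.6% of all genes tested. Again 0 of the 12 were called. For IGF-1 cells against NPCs 0 of the 21 were called, beside 0.0211% of all genes tested.

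**Figure D4:**
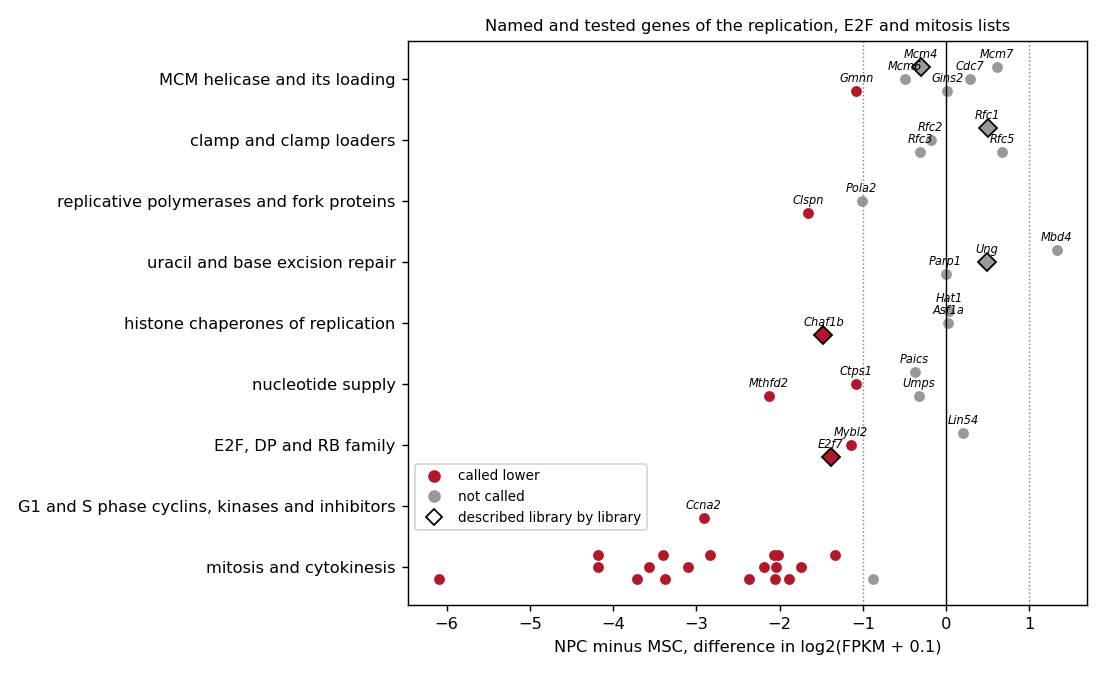
Differences in log2(FPKM + 0.1) of NPCs minus MSCs for the named and tested genes of 8 lists on DNA replication and E2F factors and of the mitosis list, 1 point a gene, with genes called lower in red and those not called in grey. Diamonds are the tested genes among the 6 (E2f8 was not tested). Most replication genes lie within 1 of zero, and 18 of 19 mitosis genes are red. The sets are not alike in how they were named. The study's called genes gave 16 of the 19 mitosis genes and 10 of the 26 tested replication and E2F genes.

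In the list of the MCM helicase and its loading, 1 of 6 tested genes was called lower. This was geminin (Gmnn), the inhibitor of helicase loading, with 0.527 ± 0.20 FPKM in NPCs and 1.19 ± 0.47 in MSCs (SD, n = 3, log2 difference −1.08, adjusted p = 0.0478). The helicase subunits Mcm6 and Mcm7 had −0.49 (adjusted p = 0.106) and 0.62 (adjusted p = 0.290), on either side of Mcm4. None of the 4 clamp loader genes was called. Rfc5, a small subunit, had 0.68 (adjusted p = 0.0309), under the size threshold and near Rfc1, while Rfc2 and Rfc3 had −0.19 and −0.31 (adjusted p = 0.523 and 0.274).

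Of the replicative polymerases and fork proteins, 1 of 2 tested was called lower, Clspn, the claspin of the replication checkpoint, with −1.66 (adjusted p = 0.0128). The primase-linked polymerase subunit Pola2 had −1.01 and missed the p threshold (adjusted p = 0.0595). None of the 3 genes of uracil and base excision repair was called, and beside Ung the glycosylase Mbd4 had 1.33 (adjusted p = 0.0908) and Parp1 −0.00 (adjusted p = 0.983). Of 3 histone chaperone genes Chaf1b was called lower, while Asf1a and Hat1 had 0.02 and 0.03 (adjusted p = 0.947 and 0.880). Among 4 genes of nucleotide supply 2 were called lower, the mitochondrial folate enzyme Mthfd2 with −2.13 (adjusted p = 0.00373) and the CTP synthase Ctps1 with −1.08 (adjusted p = 0.00140).

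The list of E2F, DP and RB genes and their partners had 4 named members. Beside E2f7 and E2f8 these were Mybl2, a transcription factor of S phase and mitosis, and Lin54, a DNA-binding subunit of the complex that joins it. Mybl2 had 0.131 ± 0.058 FPKM in NPCs and 0.392 ± 0.12 in MSCs (SD, n = 3), and was called lower (log2 difference −1.14, adjusted p = 0.0229). In IGF-1 cells its difference from MSCs was −0.91 (adjusted p = 0.0254), under the size threshold. Lin54 had 0.21 (adjusted p = 0.592) in NPCs. The 1 named gene of the G1 and S phase list, the cyclin gene Ccna2, fell from 2.30 ± 0.84 FPKM in MSCs to 0.223 ± 0.072 in NPCs and 0.241 ± 0.060 with IGF-1, with log2 differences of −2.91 (adjusted p = 0.000645) and −2.84 (adjusted p = 0.000129).

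Mitosis genes were set beside them for scale. Of the 19 named and tested, 18 were called lower in NPCs and 18 in IGF-1 cells, beside 10.1% and 9.83% of all genes tested. Their median log2 differences were −2.37 and −2.62. All 3 that were named without selection (Cdk1, Cenpf and Pttg1) were called lower in both, while 16 came from the study's called genes. The kinesin Kif20a was at 6.58 FPKM on average in MSCs and listed at 0 in all 6 induced libraries. As said for E2f8, a value of 0 in these files can also be a failed estimate. Ube2c, Cdca3 and Kif23, which act in mitosis and cytokinesis, had −4.19, −4.18 and −3.71 in NPCs (adjusted p = 7.95e-05, 0.000150 and 8.20e-05).

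The named genes whose log2 levels ran most like each member over the 9 libraries were looked up among 1892 named genes. The 9 points share 3 groups, so these values describe the group pattern as much as the genes. Closest to Chaf1b were Aspm, Depdc1 and Clspn, with Pearson r of 0.998, 0.960 and 0.948. All 3 were named only because the study had called them between NPCs and MSCs, as were Ticam2 and Lrrc34 below. Their likeness is thus not independent evidence. Aspm, a spindle pole gene, had mean levels of 0.740, 0.233 and 0.260 FPKM in MSCs, NPCs and IGF-1 cells, near those of Chaf1b. Closest to Mcm4 were Ydjc (0.976), Snx4 (0.928) and Pcyt1a (0.868). Rfc1 ran with Armcx5 (0.989), Ticam2 (0.984) and Lrrc34 (0.970). Ung ran with Acbd4 (0.970), Por (0.956) and Lama4 (0.934). Among the members themselves r was 0.79 between Mcm4 and Chaf1b and −0.63 between Ung and Chaf1b.

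Markers of some cell types moved with the groups as well, while the summed neural progenitor markers overlapped between the groups. The MSC marker Vim, the 1 named of 12 in its list, was at 2560 to 3015 FPKM in MSCs, 674 to 879 in NPCs and 630 to 826 with IGF-1. Of 15 macrophage and blood cell markers 3 were named, and their summed level was 0.231 to 0.502 FPKM in MSCs, 10.1 to 11.8 in NPCs and 9.11 to 15.1 with IGF-1. Most of that sum was Cd68, a lysosomal protein of macrophages, at 9.54 to 11.4 FPKM in NPCs. The pan-leukocyte marker Ptprc was listed at 0 in 7 of 9 libraries and at no more than 0.0142 FPKM in the rest. The 1 named of 8 endothelial markers, Vwf, was at 0.00796 to 0.0252 FPKM in MSCs, 0.228 to 0.520 in NPCs and 0.0983 to 0.220 with IGF-1. Of 7 neural progenitor markers 3 were named, with a summed level of 0.459 to 0.697 FPKM in MSCs, 0.540 to 0.750 in NPCs and 0.694 to 0.987 with IGF-1. Among them Fabp7 was listed at 0 in all 9 libraries. Msi1 was at 0.452 ± 0.12 FPKM in MSCs, 0.371 ± 0.14 in NPCs and 0.531 ± 0.18 with IGF-1 (SD, n = 3). It was not called against MSCs, with log2 differences of −0.31 (limma adjusted p = 0.514) in NPCs and 0.10 (limma adjusted p = 0.840) in IGF-1 cells. Nes, which codes for nestin, was at 0.0534 to 0.152 FPKM in MSCs, 0.293 to 0.328 in NPCs and 0.268 to 0.331 with IGF-1, under the size threshold in both comparisons with MSCs (log2 difference 0.89, adjusted p = 0.0419, and 0.85, adjusted p = 0.0244). The part of other cell types in the results for Chaf1b, E2f7 and E2f8 was not tested.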

How the data were processed

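For each of the 9 libraries, 300 ng of total RNA went into a stranded mRNA kit and was sequenced single-end. The authors assembled transcripts for each library with Cufflinks, and the deposited files give the FPKM of each transcript with a confidence interval. The deposited score column was not used. The submitters' processing notes name Cufflinks and Cuffdiff, the aligners TopHat and Bowtie2, and for base calls CASAVA 1.8 and bcl2fastq. Build and annotation release: not given in the sources used here. Another route, with the aligner STAR and the counter RSEM, is described in the methods of the study.

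FPKM of annotated and unannotated isoforms were added per gene. Single-exon transcripts within introns were left out. Reads behind a value were implied from the width of its interval and are estimates. Libraries were scaled by size factors (median of ratios). A linear model on log2(FPKM + 0.1) was fitted with limma 3.58.1 in R 4.3.3, with a trended and robust prior. The added 0.1 FPKM understates changes of low genes. Tested were genes with 0.1 FPKM in 3 or more libraries and 300 or more annotated bases. The fit for NPCs and MSCs held 6 libraries, and that for IGF-1 cells held all 9. The steps were tested on simulated data. Python 3.11.15 was used for the rest.

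The members and gene lists were chosen with earlier results of these data known. Named were the 6 members, all named genes of the E2F list, up to 4 called genes a list by size of difference between NPCs and MSCs, and the 3 genes most alike to each member with a value above 0 in at least 6 libraries. Further list genes are given to describe their list and were chosen after their values were seen. Columns of the authors' own comparisons in the study's tables were not used other than for gene names. p-values measure the spread between the 3 libraries of a group, and which rat gave which library was not used. Alternatives were other pseudocounts, filters and scalings, a replicate block, limma without trend and robust, annotated transcripts alone, isoforms weighted by length, and leaving out each library. The promoter window of 1 member is not reported here.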

Additional observations from a re-analysis of the deposited data

Results flagged for a closer look

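Single-exon unannotated transcripts within the introns of Ung, on its strand, were left out of the Ung values above, and they were seen more in induced libraries than in MSCs. There were 11 of them, 133 to 529 bases long, in 5 of the 6 induced libraries, with up to 43.7 implied reads in a library. In MSCs 1 of 3 libraries held 1, of 184 bases and 9.59 implied reads. Over the whole genome unannotated transcripts were also more numerous in each induced library (64618 to 90998) than in each MSC library (28763 to 36570). The difference at Ung was not tested.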

How the results depend on the processing

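Over the alternatives, 244 of 272 refitted differences of the 5 tested genes kept their direction and whether they were called, 13 lost the call and 15 turned direction. Only Chaf1b and E2f7 against MSCs had a call to lose. Chaf1b was called in 11 of 17 fits for NPCs and 14 of 19 for IGF-1 cells. E2f7 was called in 12 of 13 and 14 of 15. Fits in which a gene fell under the minimum are not counted. With a pseudocount of 1, a minimum of 1 FPKM (under which Chaf1b and E2f7 could not be fitted) or annotated transcripts alone (under which E2f7 could not be fitted), 0 members were called against MSCs in either comparison. The named list genes called were then 3, 3 and 2 (of 8) for NPCs and 3, 3 and 3 (of 6) for IGF-1 cells. Leaving out 1 library gave 0 to 2 members and 3 to 8 list genes for NPCs, and 0 to 2 members and 3 to 7 list genes for IGF-1 cells. The fewest, 0 members and 3 list genes for NPCs, came without the first or the second MSC library. E2f7 fell under the minimum without any 1 of the 3 MSC libraries. Over all genes, 2949 calls for NPCs became 1714 with a pseudocount of 1 and 1199 on annotated transcripts, and 3046 for IGF-1 cells became 1759 and 1501. For IGF-1 cells against NPCs 3 calls became 5 without the minimum or without trend and robust, 19 on annotated transcripts, 8 without the minimum and with 0.01 added, and 1 to 10 without 1 library. On annotated transcripts alone Ung was at −1.52 (NPCs against MSCs), −0.26 (IGF-1 cells against MSCs) and 1.25 (IGF-1 cells against NPCs), and with isoforms weighted by length the last was 0.12. Without 1 library the differences of IGF-1 cells and NPCs ran from −0.13 to 0.14 for Mcm4, −0.15 to 0.13 for Rfc1, −0.17 to 0.12 for Ung, −0.19 to 0.39 for Chaf1b and −0.064 to 0.087 for E2f7. The added 0.1 FPKM keeps any such range of E2f7 narrow. Causes of these changes were not tested other than where a gene fell under the minimum, and for Chaf1b on annotated transcripts alone, where its own FPKM were the same. The study describes its NPCs as made from its biological replicates of MSCs. Over all genes, samples with the same replicate number did not deviate together (correlations −0.10 to 0.10 over 9 pairs). No source used here says that a number marks the same rat, so no pairing was assumed. Chaf1b was lowest in replicate 3 of each group, and the replicate block gave it limma adjusted p of 0.0150 for NPCs and 0.00665 for IGF-1 cells. With the replicate block 2 members were called for NPCs and 2 for IGF-1 cells against MSCs, list genes came to 9 and 6, and calls over all genes to 2863, 3004 and 1. The depth limits E2f7, E2f8 and Chaf1b most.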
